A study of Rattus with 27 samples.

Results

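The baseline difference between brain and spleen was taken from 6 of the 27 arrays of the study, 3 arrays of sham brain and 3 of sham spleen, chosen by their titles and paired by the rat numbers 3, 4 and 5. The sham rats were Sprague Dawley rats that were anaesthetised and had the vessel exposed without an occlusion, with tissues taken at the 6 h time point. Brain and spleen were each homogenised, so each array mixes the cell types of the tissue that was taken. In such a mixture fewer cells of a type and less RNA per cell cannot be told apart. The sources used here do not give the age or sex of the rats, or the part of the brain that was taken. White blood cells separated from the blood of the same sham rats are set beside both tissues. The model-labelled rats (numbers 1, 2 and 3) and the vehicle-labelled rats (numbers 2, 4 and 5) had middle cerebral artery occlusion (MCAO), which blocks a main artery of the brain. Per the treatment protocol a group of this study was given the YJ formula, and which of these labels it belongs to is not settled.

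As background, brain tissue is made of neurons, which signal by ion channels and by release of transmitter from synaptic vesicles, and of glia: astrocytes, which take up transmitter, oligodendrocytes, which make myelin, and microglia, the resident macrophages. The spleen filters blood. Its white pulp holds B and T cells around arterioles, its red pulp holds macrophages that break down old red cells, and in rodents it also makes blood cells in adult life.

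Values are log2 intensities from RMA, and 14506 genes were measured by a probe that names a single gene. A level below is such a log2 value, given for rats 3, 4 and 5 in this order, and a difference is brain minus spleen in log2 units, followed by the fit's standard error, so that 2.0 stands for 4-fold. Calls required an adjusted p below 0.05 in limma with rat as a block, and the 3 pairs of arrays are all the replication there is. The 6 arrays had medians between 5.09 and 5.14. Over all genes, spleen arrays correlated with each other at 0.989 to 0.992, brain with spleen arrays at 0.728 to 0.751, and brain arrays 3 and 4 with each other at 0.992, against 0.968 and 0.970 for brain array 5 with them. Levels of different genes are not set against each other, since probes differ in brightness.

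Sham brain array 5 stood apart from the other brain arrays. Of the 910 genes whose brain arrays spanned at least 1.00, array 5 was the farthest from the middle value in 797, against 58 for array 3 and 55 for array 4. The gene with the widest span was Pmch, the precursor of melanin-concentrating hormone of the lateral hypothalamus, at 3.37, 3.55 and 11.34 in brain, against 3.31, 3.28 and 3.42 in spleen. Slc17a7, the vesicular glutamate transporter of cortical neurons, went the other way at 11.01, 11.12 and 5.10 in brain, against 4.45, 4.31 and 4.38 in spleen. Slc17a6, the related transporter of thalamic and other subcortical neurons, measured 4.61, 4.64 and 8.96 in brain, against 3.47, 3.39 and 3.44 in spleen. Thus array 5 was high for Pmch and Slc17a6 and low for Slc17a7, and its spleen partner was not unusual for any of these 3 genes. The mean level of the striatal list below was 5.27, 6.06 and 5.80 in brain, lowest on array 3. That of the hypothalamic and thalamic list was 5.12, 4.92 and 7.17, highest on array 5. Cga, the shared subunit of pituitary glycoprotein hormones, was also high on array 5, at 4.61, 4.44 and 9.86 in brain, against 4.19, 3.93 and 4.17 in spleen. These 4 genes were named after their values were seen. The part of the brain that each tube held was not tested and is not recorded in the labels. For some of the results that rest on array 5, the value without rat 5 is also given below.

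**Figure D1:**
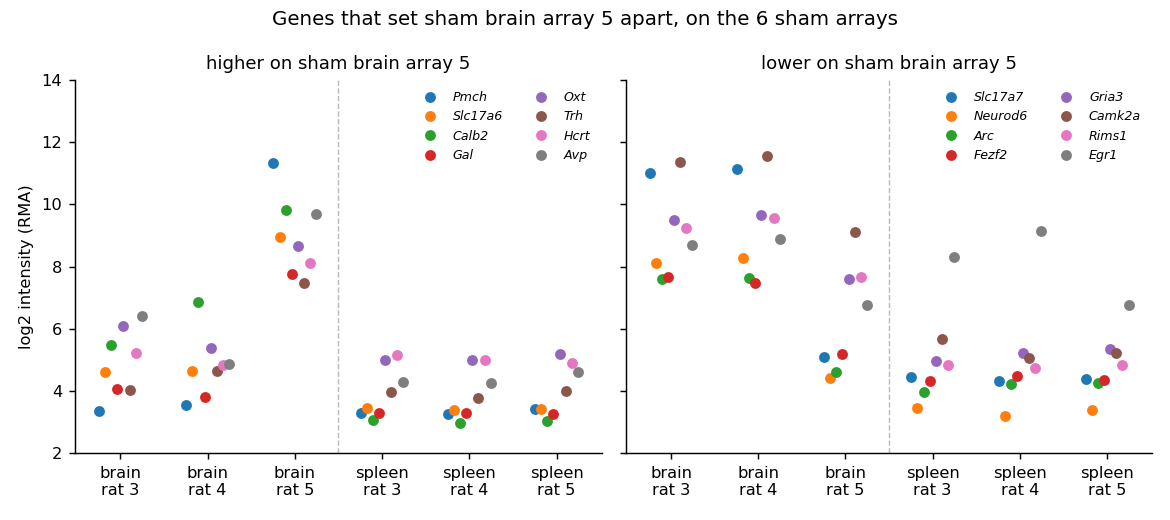
Log2 intensity of 16 genes on the 3 sham brain arrays (left of each dashed line) and the 3 sham spleen arrays, a point per array. The 8 genes of the left panel are higher on brain array 5 than on brain arrays 3 and 4, and the 8 genes of the right panel are lower on it; on the spleen arrays Pmch lies between 3.28 and 3.42 and Slc17a7 between 4.31 and 4.45.

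Brain and spleen differed at 7440 of 14506 genes (51.3%), 3600 of them higher in brain (24.8%) and 3840 higher in spleen (26.5%). With a difference of at least 4-fold as well, 1895 genes were called (13.1%), 974 higher in brain (6.71%) and 921 higher in spleen (6.35%). At 16-fold or more these counts were 265 in brain and 178 in spleen, and at 64-fold or more 19 and 16. The median difference over all genes was -0.02 and the median absolute difference 0.44, with a median standard error of 0.13. The 3 brain arrays did not overlap the 3 spleen arrays in 8445 genes (58.2%), among them 1893 of the 1895 genes called at 4-fold. For 5559 genes (38.3%) the tissues lay within 0.25 of each other.

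Among the 15 genes highest in brain over spleen, Snap25, a SNARE protein that fuses synaptic vesicles with the membrane, measured 12.13, 12.43 and 11.72 in brain, against 3.50, 3.56 and 3.62 in spleen, a difference of 8.53 ± 0.17 (371-fold, adjusted p = 6.1e-06). Vsnl1, a neuronal calcium sensor, measured 11.85, 11.94 and 11.48 in brain, against 3.36, 3.12 and 3.29 in spleen, a difference of 8.50 ± 0.15. S100b, a calcium-binding protein of astrocytes, measured 10.57, 10.82 and 11.14 in brain, against 3.65, 3.44 and 3.96 in spleen, a difference of 7.16 ± 0.13. For these genes the brain arrays lay far above the spleen arrays and the spread within a tissue stayed below 1.00. Arrays without overlap were a condition for being among the 15 genes, in each direction. The rest of the 15 largest were Fam107a, an actin-binding protein, at 7.55 ± 0.40, the astrocytic glutamate transporter Slc1a2 at 6.97, the vesicle calcium sensor Syt1 at 6.95, the granule protein Scg3 at 6.94, the peptide-processing enzyme Cpe at 6.89 and the aldolase Aldoc at 6.71. They were followed by the prostaglandin D synthase Ptgds at 6.38 ± 0.41, the ubiquitin hydrolase Uchl1 at 6.27, the axonal kinesin Kif5a at 6.26, the lipocalin Apod at 6.24, the secretory chaperone Scg5 at 6.21 and the dendritic microtubule protein Map2 at 6.14. Their adjusted p ran up to 8.0e-05, the value of Ptgds, whose brain levels were 11.42, 10.98 and 9.34.

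Among the 15 genes highest in spleen over brain, Ahsp, the chaperone of free alpha globin, measured 3.38, 4.16 and 4.87 in brain, against 10.97, 11.36 and 11.45 in spleen, a difference of -7.12 ± 0.20 (adjusted p = 6.9e-06). Ms4a1, which encodes the B cell antigen CD20, measured 2.95, 3.17 and 3.23 in brain, against 9.96, 9.47 and 9.76 in spleen, a difference of -6.61 ± 0.16. Ptprc, the CD45 phosphatase of all leukocytes, measured 4.73, 4.30 and 4.76 in brain, against 10.78, 10.82 and 10.65 in spleen, a difference of -6.15 ± 0.15. In each of them the highest brain array lay more than 4.00 below the lowest spleen array. The other 12 were Ly6c at -6.96, the red cell carbonic anhydrase Car1 at -6.95, the scavenger receptor Cd36 at -6.87, the red cell membrane protein Rhag at -6.60, the alpha-defensin Defa5 at -6.58, the macrophage adhesion receptor Adgre4 at -6.58 and the antibody joining chain Jchain at -6.49. After them came the eosinophil granule protein Prg2 at -6.35, the secreted nuclease Dnase1l3 at -6.16, Plac8 at -6.14, the T zone chemokine Ccl21 at -6.11 and the neutrophil protein S100a8 at -6.09. Probes of genes with near-identical copies, such as Ccl21, Defa5, Hbb and the RT1 genes, may bind more than a single copy, and their sequences were not used here.

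**Figure D2:**
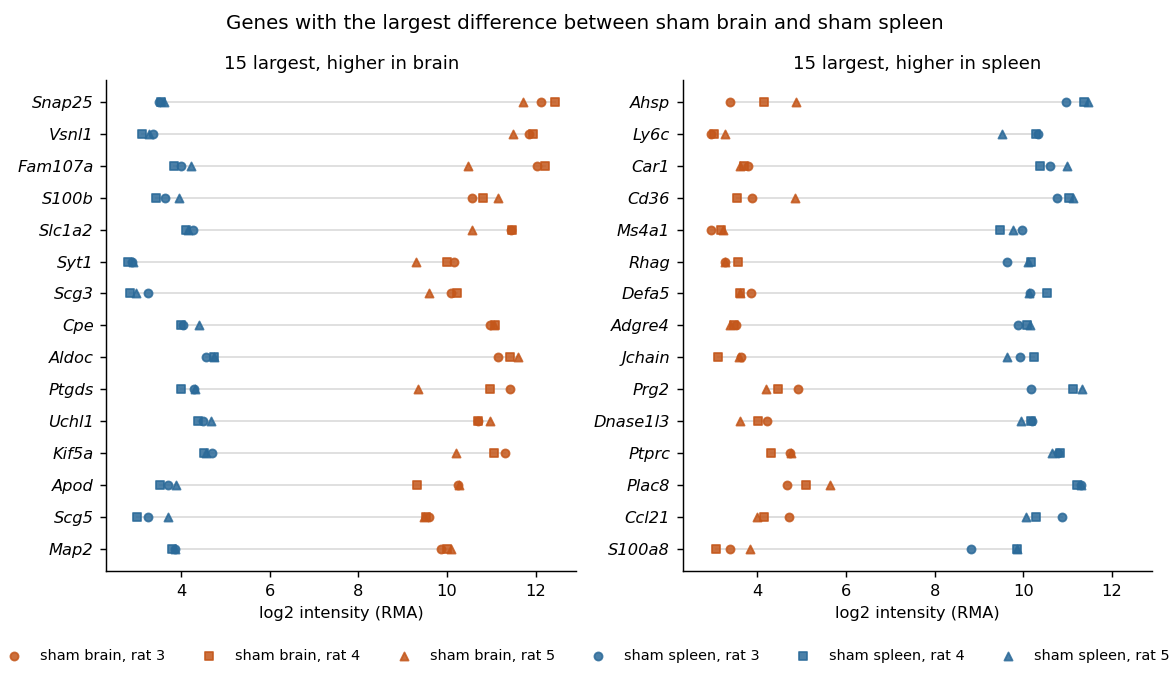
Log2 intensity of the 15 genes with the largest difference in each direction on each sham array, orange for brain and blue for spleen, with a marker shape per rat. The genes were picked among calls whose arrays do not overlap. By that choice all brain points of the left panel lie right of all spleen points, from Snap25 (8.53) down to Map2 (6.14). Likewise all spleen points of the right panel lie right of all brain points, from Ahsp (-7.12) to S100a8 (-6.09).

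The general neuronal genes were higher in brain in 18 of 18 measured, all at 4-fold or more, against 24.8% and 6.71% of all genes, with a median difference of 4.25 against -0.02 over all genes. The list was chosen with earlier results known, as were the other lists below. The counts of those lists are to be read against the same shares, or for genes higher in spleen against 26.5% and, at 4-fold, 6.35%. Besides Snap25, Syt1, Uchl1 and Map2, its largest difference was that of the neurofilament Nefl, at 6.04 ± 0.20. The smallest belonged to the heavy neurofilament Nefh, which measured 6.39, 6.39 and 6.83 in brain, against 4.08, 3.87 and 3.97 in spleen, a difference of 2.56 ± 0.14. The mean level of the list was nearly the same on the 3 brain arrays, at 9.23, 9.26 and 9.17, against 4.52, 4.45 and 4.46 in spleen. Array 5 thus did not stand apart on the mean of this list. Single members still varied, as Snap25 was lowest and Nefh highest on array 5.

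Genes of synaptic vesicles and their release were higher in brain in 21 of 21 measured of 23 listed, with a median of 3.98. Syp, the vesicle protein synaptophysin, measured 9.83, 9.77 and 9.52 in brain, against 4.15, 3.89 and 4.08 in spleen, a difference of 5.67 ± 0.13. Rab3c and Rab3a, GTPases of vesicle docking, differed by 5.63 ± 0.20 and 5.30 ± 0.13, Syn2, which tethers vesicles to actin, by 5.35 ± 0.15, and Dnm1, which pinches off vesicles, by 5.34 ± 0.19. The list mean was lower on brain array 5 than on arrays 3 and 4, at 9.33, 9.27 and 8.49, against 4.93, 4.84 and 4.85 in spleen.

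Glutamate receptor and glutamate neuron genes were higher in brain in 17 of 17 measured of 19 listed, 15 of them at 4-fold or more, with a median of 3.74. Gria2, an AMPA receptor subunit, measured 9.34, 9.33 and 8.63 in brain, against 3.21, 3.29 and 3.49 in spleen, a difference of 5.77 ± 0.21, and its partner Gria1 differed by 5.26 ± 0.14. Camk2a, a kinase of excitatory synapses, differed by 5.34 ± 0.47, and Grin1, the obligate NMDA receptor subunit, by 4.31 ± 0.15. Slc17a7 differed by 4.70 ± 1.19 (adjusted p = 0.0187), with a standard error several times that of Gria2. Without rat 5 the difference of Slc17a7 was 6.68, and without rat 3 or without rat 4 it was not called. The same held for the calls of Slc17a6, Neurod6, Neurod2 and Nrgn, so that 12 of 17 genes were called without rat 3 or without rat 4.

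Genes of GABA neurons and of GABA receptors were higher in brain in 12 of 13 measured of 18 listed, with a median of 4.36. Gabra2 and Gabrb2, subunits of the GABA-A receptor, differed by 5.96 ± 0.16 and 5.44 ± 0.12, the calcium buffer Calb1 by 5.43 ± 0.29 and the GABA-B receptor subunit Gabbr2 by 5.02 ± 0.16. Sst, the somatostatin precursor, was even across the brain arrays at 9.12, 9.21 and 9.24, against 4.43, 4.55 and 4.53 in spleen, a difference of 4.69 ± 0.11. Gad2, which makes GABA, measured 7.33, 7.99 and 8.63 in brain, against 3.30, 3.20 and 3.46 in spleen. The exception was Npy, the neuropeptide Y precursor, at 9.05, 9.44 and 8.67 in brain, against 9.06, 10.62 and 10.20 in spleen, a difference of -0.91 ± 0.29 (adjusted p = 0.0449). Npy overlapped between the tissues, its call was lost without rat 4 or without rat 5, and white blood cells measured 12.57, 12.88 and 12.89.

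Genes of ion channels and their partners were higher in brain in 18 of 18 measured of 22 listed, 16 at 4-fold or more, with a median of 3.32. Scn2a, a sodium channel of axons, measured 8.52, 8.65 and 8.63 in brain, against 2.78, 3.04 and 3.19 in spleen, a difference of 5.60 ± 0.12. Cacng2, an AMPA receptor partner also called stargazin, differed by 5.19 ± 0.15, the sodium channel beta subunit Scn2b by 4.47 ± 0.11, the potassium channel Kcnd2 by 4.21 ± 0.13 and Cacng3 by 3.91 ± 0.49. The neuronal RNA-binding genes were higher in brain in 11 of 11 measured of 13 listed, with a median of 3.87. Of these Elavl2, Elavl3 and Elavl4, which stabilise neuronal messages, differed by 4.79 ± 0.31, 4.68 ± 0.17 and 4.12 ± 0.11, while the splicing regulators Rbfox3 and Celf4 differed by 4.09 ± 0.30 and 4.05 ± 0.14.

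The neural transcription factors were higher in brain in 14 of 16 measured of 21 listed, 4 of them at 4-fold or more, with a median of 1.15. Olig1 of the oligodendrocyte lineage measured 7.96, 8.0 and 8.28 in brain, against 3.55, 3.76 and 3.70 in spleen, a difference of 4.41 ± 0.12. Myt1l, a factor of neuronal identity, differed by 3.16 ± 0.12, Lhx2 of the forebrain by 2.44 ± 0.42, Zic1 by 2.11 ± 0.13 and Pax6 by 1.66 ± 0.22. Bcl11a, which is used by cortical neurons and by B cells, measured 8.29, 7.95 and 6.52 in brain, against 7.84, 7.37 and 7.72 in spleen, and was not called (-0.06 ± 0.36), whereas without rat 5 it was called higher in brain at 0.52. Hes5, a Notch target, was the other gene not called, at 0.28 ± 0.12. The count fell to 9 of 16 without rat 3 and to 7 of 16 without rat 4, and stood at 15 without rat 5.

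Astrocyte genes were higher in brain in 13 of 13 measured of 15 listed, 10 at 4-fold or more, with a median of 4.27. After S100b, Slc1a2 and Aldoc came Aqp4, the water channel of astrocyte endfeet, which measured 9.43, 9.66 and 10.20 in brain, against 3.57, 3.78 and 3.79 in spleen, a difference of 6.05 ± 0.15. The gap junction gene Gjb6 differed by 5.28 ± 0.13, and Gfap, the filament protein used to stain astrocytes, measured 9.16, 8.96 and 9.54 in brain, against 4.44, 4.25 and 4.60 in spleen. Gja1, a gap junction gene of astrocytes and of many other cells, measured 9.19, 9.19 and 9.38 in brain, against 7.19, 7.60 and 7.67 in spleen, a smaller difference of 1.77 ± 0.13.

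Oligodendrocyte genes were higher in brain in 12 of 13 measured of 15 listed, with a median of 3.61. Mobp, a protein of compact myelin, measured 9.59, 9.12 and 10.03 in brain, against 3.61, 3.55 and 3.59 in spleen, a difference of 6.00 ± 0.18. Ermn differed by 5.16 ± 0.15, the tight junction protein of myelin Cldn11 by 4.85 ± 0.15, the galactolipid enzyme Ugt8 by 4.04 ± 0.22 and Opalin by 3.92 ± 0.14. The gene not called was Mbp, myelin basic protein, at 6.81, 6.89 and 6.69 in brain, against 6.98, 7.21 and 7.15 in spleen. That value comes from 1 of 2 Mbp probes, kept for its higher mean over the 27 arrays. The other Mbp probe averaged 11.02 in brain and 4.22 in spleen, a difference of 6.81 ± 0.12 (adjusted p = 6.0e-06). The 2 probes of Mbp thus differed by 7.12 in their tissue difference, and the result for this gene depends on the probe.

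Precursors of oligodendrocytes gave 4 of 6 genes higher in brain, led by Ptprz1 at 5.25 ± 0.21 and the matrix protein Bcan at 4.15 ± 0.19, with a median of 1.54. Vcan, a matrix proteoglycan also made by monocytes, was higher in spleen, at 5.89, 5.43 and 6.15 in brain, against 7.74, 8.27 and 6.67 in spleen, a difference of -1.74 ± 0.41 that was not called without rat 3 or without rat 4. Pdgfra, a receptor of precursors and of fibroblasts, was not called (-0.42 ± 0.16).

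Microglial genes were higher in brain in 4 of 12 measured of 14 listed and higher in spleen in 6. Over all genes these shares were 24.8% and 26.5%, and the median of the list was -1.25. Sall1, a transcription factor that sets microglia apart from other macrophages, measured 5.58, 5.92 and 5.48 in brain, against 3.72, 3.46 and 3.66 in spleen, a difference of 2.05 ± 0.16. The fractalkine receptor Cx3cr1 differed by 1.17 ± 0.24, the purine receptor P2ry12 by 0.82 ± 0.13 and the lipid receptor Trem2 by 0.63 ± 0.15. The 3 chains of complement C1q were higher in spleen, with C1qc at 6.43, 6.11 and 6.51 in brain, against 10.05, 10.08 and 9.93 in spleen, a difference of -3.67 ± 0.14. C1qb differed by -3.19 ± 0.15, C1qa by -3.09 ± 0.16, P2ry13 by -2.91 ± 0.12, Aif1 by -2.53 ± 0.12 and the growth factor receptor Csf1r by -2.48 ± 0.14. Tmem119 and Gpr34 were not called, at -0.01 ± 0.16 and 0.08 ± 0.26. Macrophages of other organs also use some genes of this list, and their part in these values was not tested. Without rat 3 the calls in brain were 2 of 12, as those of Cx3cr1 and Trem2 were lost.

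Of the genes of brain endothelium, 7 of 11 were higher in brain and 3 higher in spleen, against 24.8% and 26.5% of all genes. The median of the list was 1.54. Transporters of the blood-brain barrier led the list: Slco1a4, which carries organic anions, measured 6.44, 7.05 and 6.74 in brain, against 2.96, 2.83 and 2.90 in spleen, a difference of 3.85 ± 0.17. The glutamine transporter Slc38a3 differed by 3.78 ± 0.16, the thyroid hormone transporter Slco1c1 by 3.53 ± 0.12, the lipid transporter Mfsd2a by 2.25 ± 0.16 and the efflux pump Abcb1a by 2.16 ± 0.13. The junction gene Ocln was higher in spleen at -1.14 ± 0.13, as were the amino acid transporter Slc7a5 at -0.62 ± 0.11 and the junction gene Cldn5 at -0.44 ± 0.13, and the last of these lost its call whichever rat was left out.

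Markers of single brain regions are given list by list, against 24.8% of all genes higher in brain and 26.5% higher in spleen. Choroid plexus genes gave 1 of 11 higher in brain, Ttr at 0.51 ± 0.12, and 1 higher in spleen, Calml4 at -1.82 ± 0.25, with a median of 0.05. Ttr, which the choroid plexus makes in bulk, measured 4.68, 4.55 and 4.79 in brain, against 4.20, 4.15 and 4.14 in spleen, and was not called without rat 3 or without rat 4. Hindbrain genes gave 1 of 8 higher in brain, Tph2 of serotonin neurons at 0.40 ± 0.12, with a median of 0.13, and 0 of 8 without rat 3 or without rat 4. The mean level over these hindbrain genes was 4.46, 4.36 and 4.24 in brain, against 4.34, 4.19 and 4.22 in spleen.

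Cortical genes were higher in brain in 4 of 5 measured of 10 listed, with a median of 1.98, and their mean level was 7.38, 7.39 and 5.66 in brain, against 5.25, 5.11 and 5.03 in spleen. Neurod6, a factor of cortical excitatory neurons, measured 8.11, 8.26 and 4.43 in brain, against 3.45, 3.20 and 3.39 in spleen, and Fezf2 of deep-layer neurons 7.67, 7.48 and 5.19, against 4.32, 4.48 and 4.36. Array 5 lay near the spleen arrays for both, and the count was 4 of 5 without rat 5, against 1 of 5 without rat 3 or without rat 4. Striatal genes were higher in brain in 8 of 9 measured of 10 listed, with a median of 1.22. Penk, the enkephalin precursor, measured 5.62, 8.25 and 8.73 in brain, against 4.25, 4.19 and 4.41 in spleen, a difference of 3.25 ± 0.57 that was not called without rat 4. Tac1, the substance P precursor, differed by 1.95 ± 0.35, Pde10a by 1.82 ± 0.28, Ppp1r1b by 1.52 ± 0.22 and Pdyn by 1.22 ± 0.15. The adenosine receptor Adora2a was higher in spleen at -0.75 ± 0.23, a call lost without rat 3 or without rat 5, and 3 striatal genes were called higher in brain without rat 4.

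Hypothalamic and thalamic genes were higher in brain in 1 of 14 measured of 15 listed, Avp, and higher in spleen in 1, Prkcd, with a median of 0.55. Their mean level was 5.12, 4.92 and 7.17 in brain, against 4.91, 4.82 and 4.92 in spleen, with the highest mean on array 5. Avp, the vasopressin precursor, measured 6.42, 4.88 and 9.70 in brain, against 4.29, 4.25 and 4.61 in spleen, a difference of 2.62 ± 0.78 (adjusted p = 0.035) that was not called without rat 3. Pmch differed by 2.75 ± 1.54 and Gal, the galanin precursor, by 1.91 ± 0.77, and neither was called. Oxt, the oxytocin precursor, measured 6.08, 5.39 and 8.65 in brain, against 4.99, 4.99 and 5.18 in spleen, and was not called (1.65 ± 0.56), nor was Trh (1.47 ± 0.62). Prkcd, a kinase of thalamic neurons and of leukocytes, measured 5.93, 5.50 and 6.04 in brain, against 7.94, 7.92 and 7.71 in spleen. Without rat 5 the list had 3 genes called higher in brain, Avp at 1.38, Gal at 0.63 and Oxt at 0.745 (limma adjusted p = 0.0396, 0.0148 and 0.0372). Pmch then differed by 0.165 and was not called.

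The immediate early genes are switched on by neurons and blood cells within minutes of a stimulus, and 14 were measured of 15 listed. Of the 14, 3 were higher in brain and 3 higher in spleen, near the shares of 24.8% and 26.5% over all genes. The median of the list was -0.08. Nr4a2, an orphan nuclear receptor, measured 9.38, 8.78 and 7.50 in brain, against 5.85, 5.81 and 5.36 in spleen, a difference of 2.88 ± 0.26. Arc, a dendritic protein of active neurons, measured 7.61, 7.64 and 4.62 in brain, against 3.98, 4.23 and 4.26 in spleen, a difference of 2.47 ± 0.64, and Npas4, a factor of depolarised neurons, differed by 1.38 ± 0.28. The calls of Arc and Npas4 were lost without rat 3 or without rat 4. Higher in spleen were Ier2 at -2.0 ± 0.12, the phosphatase Dusp1 at -1.19 ± 0.18 and Junb at -1.0 ± 0.12. Egr1 was not called and was lowest in rat 5 in both tissues, at 8.70, 8.87 and 6.78 in brain, against 8.32, 9.14 and 6.76 in spleen.

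**Figure D3:**
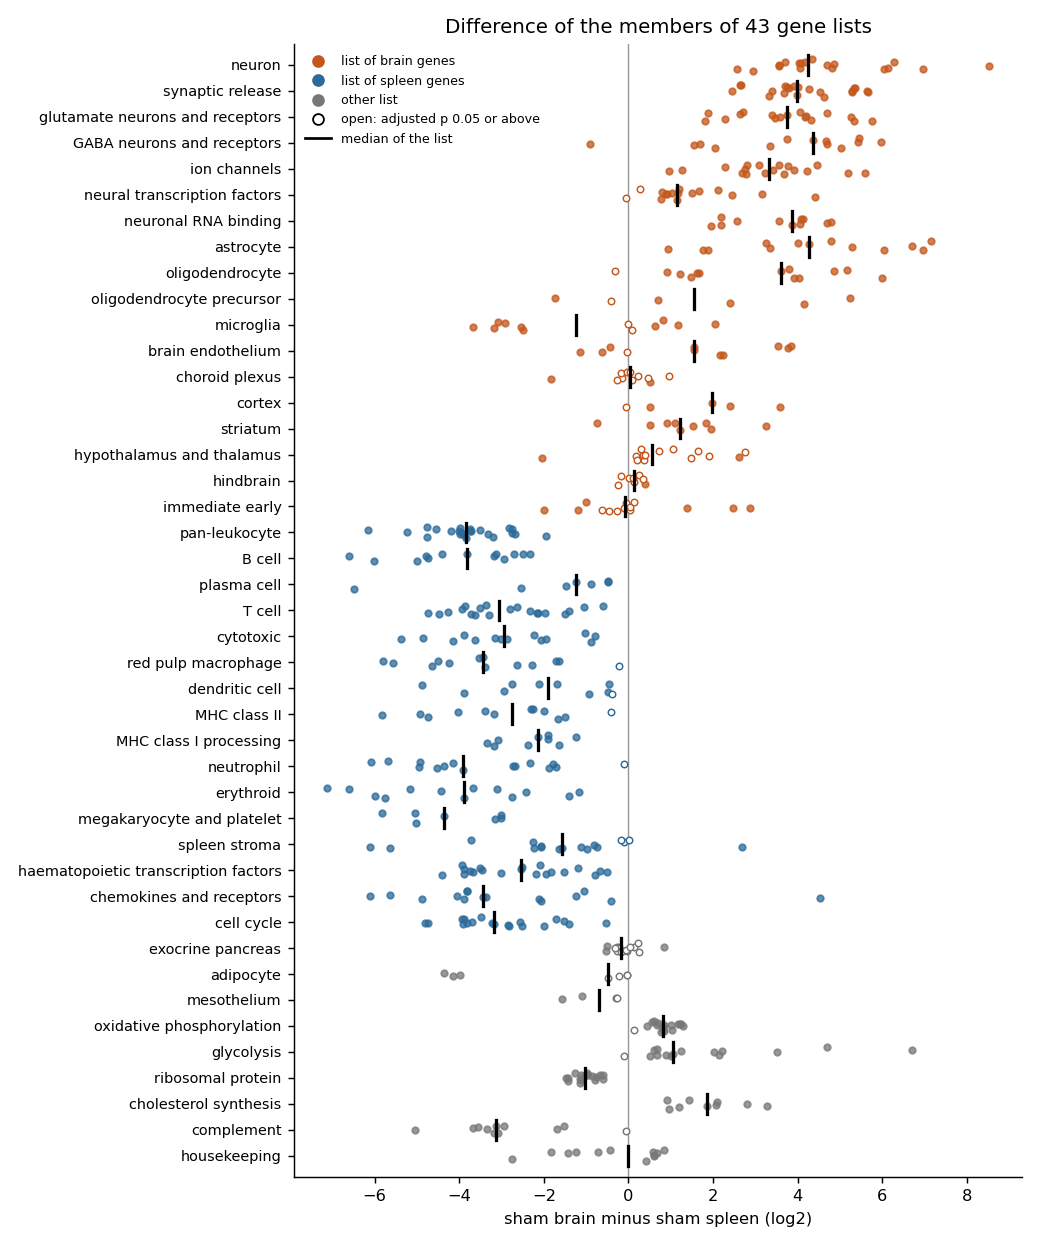
Difference between sham brain and sham spleen (log2) of each measured member of 43 gene lists, a point per gene, filled where called (adjusted p under 0.05) and open where not, with the median of each list as a black bar. The lists of neuronal and astrocytic genes lie right of 0 (neuron median 4.25, astrocyte 4.27), microglial genes fall on both sides (median -1.25), and the lists of blood cells lie left of 0 (platelet median -4.37).

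Genes shared by leukocytes were higher in spleen in 23 of 23 measured of 24 listed, against 26.5% of all genes, and 22 of them at 4-fold or more, against 6.35%, with a median of -3.83. After Ptprc came Rac2, a GTPase of blood cells, at 5.67, 5.38 and 5.31 in brain, against 10.93, 10.77 and 10.40 in spleen, a difference of -5.25 ± 0.12. The actin bundler Lcp1 differed by -4.77 ± 0.17 and the tetraspanin Cd37 by -4.54 ± 0.17. The mean level of the list was even within each tissue, at 5.48, 5.42 and 5.43 in brain, against 9.33, 9.35 and 9.07 in spleen.

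B cell genes were higher in spleen in 13 of 13 measured of 19 listed, all at 4-fold or more, with a median of -3.81. Cr2, the complement receptor of follicular B cells, measured 3.13, 3.14 and 2.70 in brain, against 9.09, 8.79 and 9.11 in spleen, a difference of -6.01 ± 0.17. Fcrla differed by -5.0 ± 0.16, the antigen receptor chain Cd79b by -4.79 ± 0.16 and the inhibitory receptor Cd22 by -4.74 ± 0.12. Plasma cell genes were higher in spleen in 7 of 7 measured of 8 listed, 2 at 4-fold or more, with a median of -1.24. Jchain measured 3.63, 3.12 and 3.58 in brain, against 9.92, 10.25 and 9.63 in spleen, whereas the transcription factors Irf4 and Prdm1 differed by -2.54 ± 0.13 and -1.24 ± 0.11 and Sdc1 and Derl3 by -1.48 ± 0.11 and -0.90 ± 0.18. Without rat 3 or without rat 4 the plasma cell count was 4 of 7.

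T cell genes were higher in spleen in 20 of 20 measured of 23 listed, 15 at 4-fold or more, with a median of -3.05. Cd3g, a chain of the T cell receptor complex, measured 3.54, 3.18 and 3.12 in brain, against 8.38, 7.90 and 7.80 in spleen, a difference of -4.75 ± 0.11. The cytokine receptor Il7r differed by -4.47 ± 0.11, Cd8a by -4.27 ± 0.13, Cd3e by -3.94 ± 0.15 and Cd2 by -3.86 ± 0.28. The list mean was 4.29, 4.24 and 4.07 in brain, against 7.42, 7.07 and 6.71 in spleen. Genes of cytotoxic and natural killer cells were higher in spleen in 14 of 14 measured of 15 listed, with a median of -2.94. The activating receptor Klrk1 differed by -5.39 ± 0.11, the granule protein Nkg7 by -4.86 ± 0.20, the granzyme Gzmk by -4.14 ± 0.12, the chemokine Ccl5 by -3.89 ± 0.19 and perforin, Prf1, by -3.63 ± 0.26.

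Red pulp macrophage genes were higher in spleen in 12 of 13 measured of 14 listed, 10 at 4-fold or more, with a median of -3.45. Slc40a1, the iron exporter ferroportin, measured 4.89, 5.04 and 4.51 in brain, against 10.54, 10.67 and 10.63 in spleen, a difference of -5.80 ± 0.14. Hmox1, which breaks down haem, measured 5.08, 4.84 and 5.67 in brain, against 10.43, 11.16 and 10.67 in spleen, a difference of -5.56 ± 0.26. The haemoglobin scavenger receptor Cd163 differed by -4.64 ± 0.21, Cd5l by -4.49 ± 0.11 and the metal transporter Slc11a1 by -4.24 ± 0.17. Spic, the transcription factor of these macrophages, differed by -1.64 ± 0.12, and Marco, a receptor of marginal zone macrophages, was not called (-0.23 ± 0.11).

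Dendritic cell genes were higher in spleen in 9 of 10 measured of 11 listed, 5 at 4-fold or more, with a median of -1.90, led by the costimulator Cd86 at -4.89 ± 0.14, Irf8 at -3.90 ± 0.13, Clec9a at -2.95 ± 0.11 and Xcr1 at -2.75 ± 0.14. Genes of MHC class II presentation were higher in spleen in 11 of 12, with a median of -2.75. RT1-Da, a class II alpha chain, measured 5.81, 5.21 and 5.48 in brain, against 11.31, 11.37 and 11.32 in spleen, a difference of -5.83 ± 0.15. The invariant chain Cd74 differed by -4.94 ± 0.15, RT1-Ba by -4.74 ± 0.16 and Ifi30 by -4.02 ± 0.16, while Ctss, a protease of microglia and of other antigen-presenting cells, was not called (-0.41 ± 0.19). Genes of class I processing were higher in spleen in 9 of 9 measured of 10 listed, with a median of -2.15, led by the immunoproteasome subunit Psmb8 and the peptide transporter Tap1 at -3.33 ± 0.13 and -3.19 ± 0.20.

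Neutrophil genes were higher in spleen in 14 of 15, 11 at 4-fold or more, with a median of -3.92. S100a8 measured 3.38, 3.07 and 3.83 in brain, against 8.82, 9.86 and 9.86 in spleen, and S100a9, its partner in calprotectin, differed by -5.68 ± 0.21. The collagenase Mmp8 differed by -4.96 ± 0.21 and the chemokine receptor Cxcr2 by -4.54 ± 0.25. Ngp, a granule protein made in the bone marrow, measured 3.74, 3.66 and 3.58 in brain, against 7.71, 9.59 and 8.43 in spleen, a difference of -4.92 ± 0.35. Ltf was not called, at -0.11 ± 0.12. The spleen of rat 3 was the lowest of the spleens for the list mean, at 7.11, 8.12 and 7.70.

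Red cell genes were higher in spleen in 13 of 13 measured of 18 listed, 11 at 4-fold or more, with a median of -3.89. Besides Ahsp and Rhag, the anion exchanger Slc4a1 differed by -5.98 ± 0.11, the blood group protein Rhd by -5.75 ± 0.21 and Epb42 of the membrane skeleton by -5.16 ± 0.17. Alas2, the first enzyme of haem synthesis in red cells, measured 6.22, 6.31 and 6.76 in brain, against 10.30, 11.19 and 11.08 in spleen. Hbb, beta globin, differed by less, at 11.58, 11.68 and 11.87 in brain, against 13.02, 13.18 and 13.16 in spleen, a difference of -1.41 ± 0.11. Blood left in the brain vessels was not tested. Platelet and megakaryocyte genes were higher in spleen in 7 of 7 measured of 14 listed, all at 4-fold or more, with a median of -4.37. Ppbp differed by -5.82 ± 0.28, the integrin Itgb3 by -5.06 ± 0.15, Pf4 by -5.02 ± 0.29, the receptor chain Gp1ba by -4.37 ± 0.24 and Gp9 by -3.15 ± 0.20.

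Stromal genes of the spleen were higher in spleen in 13 of 17 measured of 19 listed, 7 at 4-fold or more, with a median of -1.58. Ccl21 measured 4.72, 4.16 and 3.99 in brain, against 10.87, 10.28 and 10.05 in spleen, and the follicular chemokine Cxcl13 measured 3.46, 3.50 and 3.41 in brain, against 9.32, 8.53 and 9.43 in spleen. The muscle filament Des differed by -3.71 ± 0.23, Tagln by -2.26 ± 0.18, and Tlx1, the homeobox gene needed to form a spleen, by -2.24 ± 0.12. The exception was Dcn, a matrix proteoglycan, at 8.39, 7.51 and 8.11 in brain, against 4.78, 4.31 and 6.89 in spleen, a difference of 2.68 ± 0.45 that was not called without rat 4. Chemokines and their receptors were higher in spleen in 14 of 15 measured of 16 listed, with a median of -3.44, and included Ccr2 of monocytes at -4.88 ± 0.21, Cxcl10 at -4.06 ± 0.23 and Ccl5. Cx3cl1, the neuronal fractalkine whose receptor is Cx3cr1, went the other way at 9.52, 9.49 and 8.20 in brain, against 4.73, 4.42 and 4.44 in spleen, a difference of 4.54 ± 0.26.

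Transcription factors of blood cells were higher in spleen in 20 of 20 measured of 22 listed, 13 at 4-fold or more, with a median of -2.54. Spib differed by -4.41 ± 0.15, Ikzf1 by -3.94 ± 0.12, Irf8 by -3.90 ± 0.13, Gata1 of red cells and platelets by -3.89 ± 0.19 and Ikzf3 by -3.74 ± 0.12. Genes of the cell cycle were higher in spleen in 19 of 19 measured of 22 listed, 14 at 4-fold or more, with a median of -3.18. Rrm2, which makes deoxynucleotides, measured 4.45, 4.34 and 4.47 in brain, against 9.06, 9.15 and 9.46 in spleen, a difference of -4.80 ± 0.12. Topoisomerase Top2a differed by -4.74 ± 0.19, cyclin Ccna2 by -3.93 ± 0.15, the spindle motor Kif11 by -3.90 ± 0.16 and the checkpoint kinase Bub1 by -3.89 ± 0.20. Complement genes were higher in spleen in 10 of 11 measured of 14 listed, with a median of -3.13, led by properdin, Cfp, at -5.05 ± 0.13, C1s at -3.56 ± 0.15 and the membrane inhibitor Cd55 at -3.35 ± 0.29.

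Genes of tissues that border the spleen were measured as well, against 51.3% of all genes called. Of the enzymes of the exocrine pancreas, 12 of 15 measured of 17 listed were not called, and their mean level was 4.30, 4.17 and 4.13 in brain, against 4.31, 4.20 and 4.30 in spleen. The called ones were Pnlip at 0.83 ± 0.15, Cela1 at -0.53 ± 0.14 and Cpa1 at -0.50 ± 0.16, and without rat 3 none of these was called. Of the fat cell genes, Lpl, Fabp4 and Cfd were higher in spleen at -4.35 ± 0.16, -4.15 ± 0.21 and -3.97 ± 0.16, while 4 of 7, among them Adipoq, a hormone of fat cells, were not called. Adipoq measured 3.56, 3.35 and 3.34 in brain, against 3.61, 3.28 and 4.82 in spleen. Genes of the mesothelium, which covers the spleen, were higher in spleen in 2 of 4 measured of 6 listed, Wt1 at -1.58 ± 0.13 and Msln at -1.09 ± 0.30, and the spleen of rat 5 was the highest at a list mean of 4.68, 4.67 and 5.47. The call of Msln was lost without rat 3 or without rat 4. The part of such borders in the spleen results was not tested.

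Many families keep separate genes for neurons and for other cells, or for standing and for immune proteasomes, and 16 of 20 such pairs had both members measured. The neural or standing form was higher in brain in 16 of 16 pairs, against 24.8% of all genes. The other form was higher in spleen in 11 of 16, against 26.5% of all genes. Some of these genes, such as Aldoc, Eno2 and Psmb8, were also counted in the lists above. Ptbp2, the neuronal splicing repressor, measured 8.32, 8.49 and 8.64 in brain, against 6.17, 6.36 and 6.33 in spleen, a difference of 2.20 ± 0.11. Its relative Ptbp1, which neurons switch off, measured 6.70, 6.53 and 6.68 in brain, against 8.85, 8.86 and 8.68 in spleen, a difference of -2.16 ± 0.12. The members of this pair differed in opposite directions. In the proteasome the standing catalytic subunits were slightly higher in brain, with Psmb5 at 0.41 ± 0.11, Psmb6 at 0.58 ± 0.13 and Psmb7 at 0.61 ± 0.11, while their immune counterparts Psmb8, Psmb9 and Psmb10 were higher in spleen at -3.33 ± 0.13, -3.09 ± 0.21 and -1.89 ± 0.14. Without rat 4 the calls of Psmb5, Psmb6 and Psmb7 were lost, at limma adjusted p of 0.105, 0.0885 and 0.0502, and that of Psmb5 was also lost without rat 3 (0.0951).

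Other pairs differed in the same pattern. The ELAV proteins gave 4.12 ± 0.11 for Elavl4 and -0.93 ± 0.12 for Elavl1, the dynamins 5.34 ± 0.19 for Dnm1 and -1.08 ± 0.11 for Dnm2, and the vesicle SNAREs 3.92 ± 0.12 for Vamp2 and -1.88 ± 0.12 for Vamp8. The G protein subunit Gnao1 differed by 5.49 ± 0.11 and Gnai2 by -0.58 ± 0.15, and the phospholipases Plcb1 and Plcb2 by 3.21 ± 0.17 and -1.67 ± 0.12. The tubulins Tubb3 and Tubb5 gave 3.56 ± 0.12 and -0.35 ± 0.11, and the hexokinases Hk1 and Hk3 1.01 ± 0.12 and -0.91 ± 0.11. The call of Tubb5 was lost whichever rat was left out and after quantile normalization, and that of Gnai2 without rat 3 or without rat 4. The exceptions were pairs in which both forms were higher in brain: Aldoc at 6.71 with Aldoa at 1.24 ± 0.11, Eno2 at 4.70 with Eno1 at 0.68 ± 0.11, and the kinesins Kif5c at 5.32 ± 0.18 with Kif5b at 0.83 ± 0.15. In a pair of endophilins, Sh3gl2 differed by 4.11 ± 0.28 and Sh3gl1 was not called (-0.37 ± 0.13), and beside Camk2a its relative Camk2d was not called (0.14 ± 0.13).

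**Figure D4:**
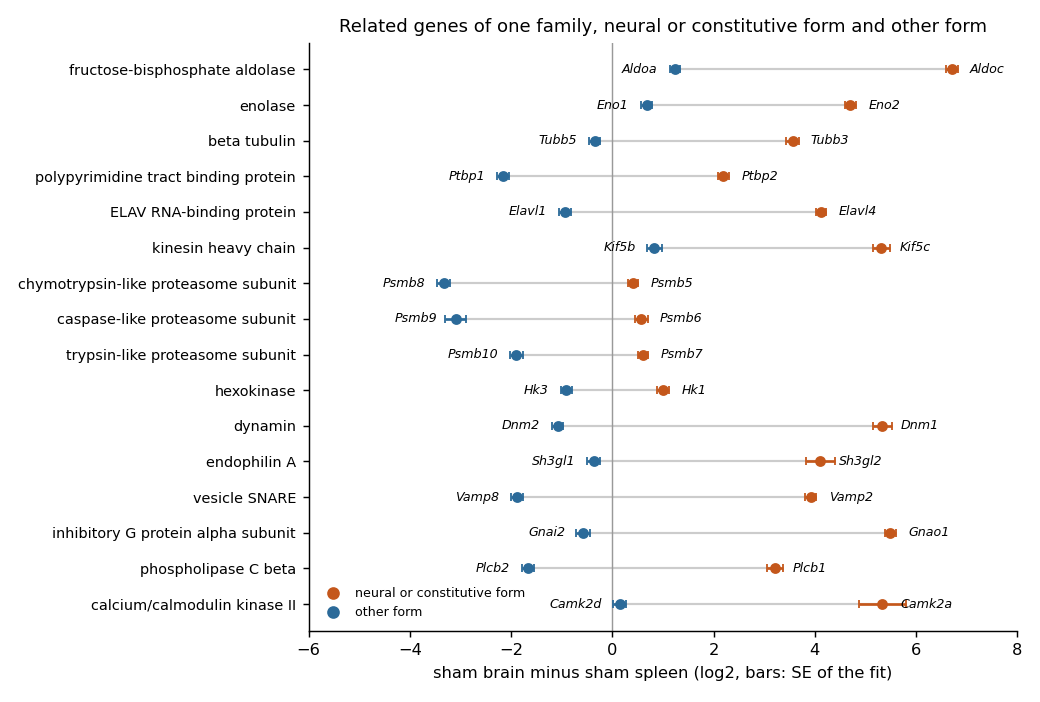
Difference between sham brain and sham spleen (log2, bars are the standard error of the fit, 3 rats) of both members of 16 gene pairs, orange for the neural or constitutive form and blue for the other. The orange points all lie right of 0, from Psmb5 at 0.41 to Aldoc at 6.71, and the blue points run from Psmb8 at -3.33 to Aldoa at 1.24.

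Genes of the respiratory chain were higher in brain in 17 of 18 measured of 20 listed, against 24.8% of all genes. The median was 0.82 with none at 4-fold, and with a sham rat left out 13 to 17 genes were called. Cytochrome c, Cycs, led the list at 1.28 ± 0.12, before Ndufa4 at 1.24 ± 0.15 and Ndufs1 at 1.21 ± 0.11. Cycs measured 9.63, 10.07 and 9.93 in brain, against 8.51, 8.67 and 8.61 in spleen. Genes of glycolysis were higher in brain in 14 of 15, 6 of them at 4-fold or more, with a median of 1.06. After Aldoc and Eno2 came the muscle-type phosphofructokinase Pfkm at 3.52 ± 0.12, the lactate dehydrogenase Ldhb at 2.21 ± 0.14 and Pfkp at 2.14 ± 0.12. Ldha, the other lactate dehydrogenase, measured 11.74, 11.41 and 11.37 in brain, against 11.61, 11.58 and 11.66 in spleen, and was not called (-0.11 ± 0.13). Genes of cholesterol synthesis and handling were higher in brain in 9 of 9 measured of 13 listed, with a median of 1.85. The neuronal cholesterol hydroxylase Cyp46a1 measured 8.79, 8.45 and 7.21 in brain, against 4.90, 4.84 and 4.85 in spleen, a difference of 3.29 ± 0.30, and Cyp51 differed by 2.80 ± 0.12, Fdft1 by 2.10 ± 0.15, the carrier Apoe by 2.07 ± 0.14 and Sqle by 1.85 ± 0.13.

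Ribosomal protein genes were higher in spleen in 18 of 18 measured of 20 listed, against 26.5% of all genes. Their median was -1.03, with a range from -1.47 for Rpl22 to -0.60 for Rpl32, and 14 to 18 were called with a sham rat left out. Their mean level was 10.09, 10.10 and 10.43 in brain, against 11.31, 11.14 and 11.24 in spleen. Genes often used as references were each called, 12 being measured of 15 listed, against 51.3% of all genes called. Of these, 6 of 12 were higher in brain and 6 higher in spleen, and 1 was at 4-fold, the transferrin receptor Tfrc at -2.76 ± 0.11. Gapdh measured 12.48, 12.40 and 12.37 in brain, against 11.79, 11.81 and 11.64 in spleen, a difference of 0.67 ± 0.11. Actb, cytoplasmic actin, measured 11.91, 11.83 and 11.72 in brain, against 12.55, 12.63 and 12.47 in spleen, a difference of -0.73 ± 0.11. The others higher in brain were Sdha at 0.84 ± 0.12, Pgk1 at 0.61 ± 0.12, Ywhaz at 0.60 ± 0.13, Ppia at 0.58 ± 0.11 and Hprt1 at 0.41 ± 0.12. Higher in spleen were also Tbp at -0.45 ± 0.12, B2m at -1.24 ± 0.11, Rplp0 at -1.44 ± 0.11 and Gusb at -1.84 ± 0.11. Left out in turn, rats 3 and 4 each took calls from this list, to 8 of 12 without rat 3 and 7 of 12 without rat 4, and Hprt1 lost its call whichever rat was left out.

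White blood cells of the same sham rats were set against the genes called at 4-fold between brain and spleen. The counts that follow were not taken over all genes, so there is no share to set beside them. The genes had also been picked for a high level in brain or in spleen. Of the 974 genes at 4-fold or more in brain over spleen, 832 were also at least 4-fold higher in brain than in white blood cells, with a median brain minus white blood cell difference of 3.04. Of the 921 genes at 4-fold or more in spleen over brain, 448 lay within 2-fold of white blood cells, 229 were at least 4-fold higher in spleen than in white blood cells and 40 at least 4-fold lower, with a median of 0.26. The genes named from here to the end of this comparison, other than list members, were chosen after their values were seen. Those far above white blood cells included the stromal chemokines Ccl21 and Cxcl13, the adhesion molecule Vcam1, C1qa and C1qc of macrophages, the eosinophil gene Prg2 and Defa5. Vcam1 measured 10.46, 10.75 and 10.48 in spleen and averaged 4.32 in white blood cells. Those far below white blood cells included the platelet genes Gp1ba, Gp9 and Gp5. Gp9 measured 7.87, 8.51 and 8.37 in spleen and averaged 11.85 in white blood cells. Among genes higher in brain, Nrgn, a calmodulin-binding protein of dendrites, measured 11.50, 11.72 and 8.92 in brain, against 8.17, 8.66 and 8.48 in spleen, while white blood cells measured 12.08, 11.90 and 12.08.

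**Figure D5:**
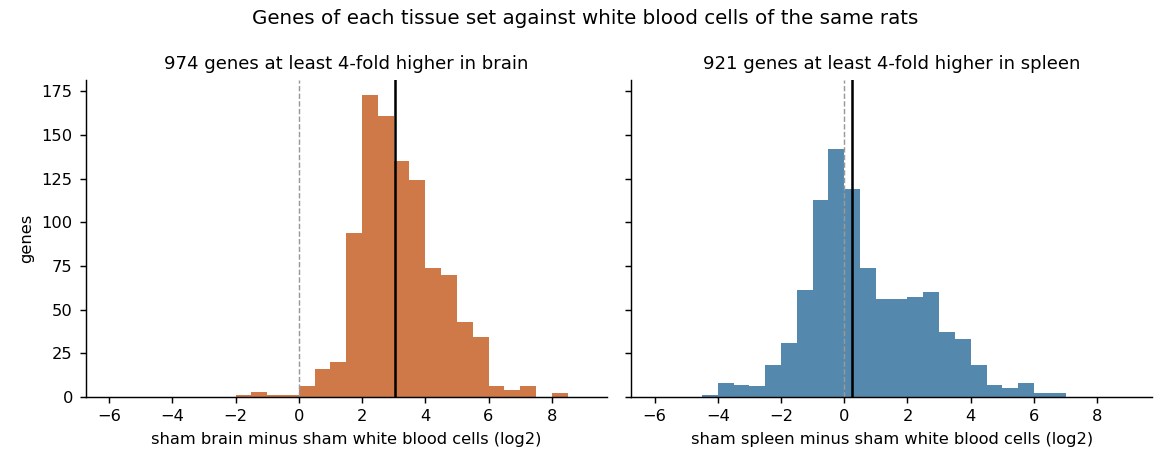
Left, the 974 genes called at 4-fold or more in brain over spleen by their difference between sham brain and sham white blood cells (means of 3 arrays, log2). Right, the 921 genes called at 4-fold or more in spleen over brain by their difference between sham spleen and sham white blood cells. The black lines mark the medians, 3.04 on the left and 0.26 on the right, and the dashed lines mark 0.

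The tissue difference was measured again in rats with MCAO, whose arrays the sham comparison did not use. In model-labelled rats 8152 genes were called between brain and spleen (56.2%), 25.0% of all genes higher in brain and 31.2% higher in spleen, and in vehicle-labelled rats 6404 (44.1%), 22.2% higher in brain and 21.9% higher in spleen. Of the 974 genes at 4-fold or more in sham brain, 974 were called the same way in model-labelled rats and 970 in vehicle-labelled rats. Of the 921 at 4-fold or more in sham spleen, 914 were called the same way in model-labelled rats and 916 in vehicle-labelled rats. Both groups repeated the call, with no limit on fold, for 1883 of 1895 genes (99.4%). A difference of at least 4-fold was itself repeated less often. In model-labelled rats it was for 815 of the 974 and 736 of the 921 genes, and in vehicle-labelled rats for 866 and 754. The 12 genes without a repeated call in both groups were Avp, Th, Nts and Kcnj16, higher in sham brain and high on array 5, and Ccl2, Ccl3, Hcar2, Hspb1, Ifit1, Olr1, Socs3 and Timp1, higher in sham spleen. Slc17a7, low on sham brain array 5, measured 10.91, 10.47 and 11.02 in model-labelled brain and 7.28, 10.89 and 10.70 in vehicle-labelled brain.

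The MCAO rats were taken as the mean of the model- and vehicle-labelled groups, which does not separate MCAO from a treatment given to either group. Whether the tissue difference itself differed between these rats and sham rats was tested by an interaction term over the 18 brain and spleen arrays. It called 34 genes (0.234%), with 31 higher toward brain in MCAO than in sham rats and 3 lower, and 12 of them were among the 1895 genes called at 4-fold in sham rats. Ccl3, a chemokine of macrophages, gave a tissue difference of 2.09 in model-labelled, 1.58 in vehicle-labelled and -2.79 in sham rats, a change of 4.62 ± 0.66 (adjusted p = 0.0291). In brain it measured 8.94, 10.65 and 8.43 in model-labelled rats and 6.93, 9.88 and 8.72 in vehicle-labelled rats, against 4.64, 4.94 and 4.89 in sham rats, with no overlap. Npas4 gave tissue differences of 6.64 in model-labelled, 3.76 in vehicle-labelled and 1.38 in sham rats, a change of 3.82 ± 0.38. The receptor Olr1 changed by 3.48 ± 0.54, Fos by 2.70 ± 0.36 and Hmox1 by 2.62 ± 0.43. The genes lower toward brain were the barrier transporter Slco1a4 at -2.01 ± 0.30, the synuclein Sncg at -1.59 ± 0.24 and Vamp5 at -0.77 ± 0.13. Vamp5 was not called without the rat block (limma adjusted p = 0.413), and Hmox1 was not called after quantile normalization (0.0557). Slco1a4 measured 4.28, 4.74 and 5.26 in model-labelled brain and 5.64, 4.62 and 4.79 in vehicle-labelled brain, against 6.44, 7.05 and 6.74 in sham brain. The number of calls depended on single rats, from 3 without sham rat 4 to 71 without vehicle-labelled rat 2. Of the genes named here only Npas4 stayed called whichever rat was left out, with a change between 3.39 and 4.12 over the alternatives. Ccl3 lost its call without sham rat 3 or 4, without vehicle-labelled rat 5 and without model-labelled rat 1, 2 or 3, each left out alone.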

How the data were processed

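RNA of brain, spleen and white blood cells was measured on 27 Affymetrix rat gene arrays. The deposited values are log2 intensities from RMA, per the submitters' processing notes; the log2 scale was read from the values, and the sources used here do not say if the 3 tissues shared a normalization. Of 27596 probes, 15310 had 1 gene symbol in the platform annotation, and the probe with the highest mean over all arrays stood for each of 14506 genes. No per-sample column was left unused. Differences were fitted in limma 3.58.1 (R 4.3.3) with rat as a block and Benjamini-Hochberg adjustment over all genes, and the fit was tested on simulated data. Pairing follows the titles' rat numbers and the design text, by which tissues of each rat were taken. The deviations of same-numbered brain and spleen arrays correlated at 0.143, 0.134 and 0.143 in model-labelled, 0.0298, -0.0145 and -0.0554 in vehicle-labelled and 0.136, 0.0284 and 0.111 in sham rats, so in vehicle-labelled rats they did not deviate together.

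Members and gene lists were chosen with earlier results of these data known. The rule named the 15 largest non-overlapping calls in each direction, up to 5 members per list and those called against it, paralog pairs, housekeeping genes and the 5 largest interaction genes each way; other genes were chosen after their values were seen. The number of arrays limits the precision. The p-values and standard errors rest on the spread between 3 rats, which limma moderates toward a value pooled over all genes. Alternatives covered the block, arrays in the fit, normalization, filter, probe rule, variance model, threshold and each rat left out.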

Additional observations from a re-analysis of the deposited data

Results flagged for a closer look

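For 12 of the genes named in the text the brain minus spleen difference was not the same in rats with MCAO and in sham rats. This is by the interaction term of limma on the mean of the model- and vehicle-labelled groups (34 of 14506 genes called). Toward brain, the change was 4.62 for Ccl3, 3.82 for Npas4, 3.48 for Olr1, 2.7 for Fos, 2.62 for Hmox1 and 2.49 for Timp1 (log2). Smaller changes in the same direction were those of Egr1 at 2.12, Dusp1 at 1.63 and Junb at 1.44. The tissue difference of Dusp1 was 1.25 in model-labelled, -0.36 in vehicle-labelled and -1.19 in sham rats, and that of Junb 1.33, -0.44 and -1.0. Toward spleen, the change was -2.01 for Slco1a4, -1.59 for Sncg and -0.77 for Vamp5. Npas4 kept its call whichever rat was left out, and each of the other 11 lost it without at least 1 rat. Without the replicate block the calls of Vamp5 (limma adjusted p = 0.413) and Egr1 (0.317) were lost, and after quantile normalization those of Hmox1 and Timp1 (0.0557 each).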

How the results depend on the processing

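All 1895 genes called at 4-fold kept their sign in every alternative in which they were tested. Calls in sham rats ran from 5295 to 7332 with a rat left out and 4-fold calls from 1811 to 1964. Without the replicate block, 7381 genes were called in sham rats (1890 at 4-fold), 7783 in model-labelled rats, 6627 in vehicle-labelled rats and 51 by the interaction term. With a rat left out the interaction gave 3 to 71 calls. A fit to 2 rats has few degrees of freedom, and other causes of lost calls were not tested.

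With a sham rat left out, calls in the direction of the list ran from 7 to 15 for neural transcription factors, 2 to 4 for microglia, 0 to 2 for choroid plexus, 1 to 4 for cortex, 3 to 7 for striatum, 0 to 3 for hypothalamus and thalamus, 0 to 1 for hindbrain, 1 to 3 for immediate early genes and 4 to 7 for plasma cells. For lists with no side they ran from 0 to 3 for exocrine pancreas, 1 to 2 for mesothelium and 7 to 11 for housekeeping genes. The filter at the 40th percentile, which leaves fewer genes to test, gave 9 neural transcription factors, 2 microglial, 0 choroid plexus, 3 striatal, 2 hypothalamic and thalamic, 0 hindbrain, 9 cytotoxic, 1 pancreatic and 1 mesothelial gene. At an adjusted p under 0.01 there were 0 choroid plexus, 0 hypothalamic and thalamic, 0 hindbrain, 1 pancreatic and 1 mesothelial gene. All 27 arrays in the fit gave 0 choroid plexus, 6 hypothalamic and thalamic and 2 hindbrain genes, the 9 sham arrays 2, 3 and 2, and array weights 2, 2 and 2. The hypothalamic and thalamic count was 3 after quantile normalization, 2 after median centring and 0 with a trended robust prior.

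Genes near 0 changed sign, and of these Bcl11a (without rat 5, limma adjusted p = 0.0213) and Mbp were called there. With a rat left out, Bcl11a ran from -0.38 to 0.52, Gpr34 from -0.20 to 0.48, Tmem119 from -0.17 to 0.19, Egr1 from -0.13 to 0.2 and Adipoq from -0.77 to 0.01. With array weights Bcl11a was 0.25, Gpr34 -0.005 and Tmem119 0.0, and Tmem119 was 0.007 after median centring. Ldha was 0.056 after quantile normalization. Mbp was 3.25 as the mean of its 2 probes (adjusted p = 9.98e-06).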

Other observations

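Some genes differed between the sham rats within a tissue. The interferon-induced gene Ifit1 measured 3.35, 3.66 and 3.98 in sham brain, against 3.79, 9.15 and 9.06 in sham spleen, with 3.30, 6.07 and 6.26 in white blood cells of the same rats. The spleens of model-labelled rats 1, 2 and 3 had Ifit1 levels of 3.74, 9.11 and 3.34. Those of vehicle-labelled rats 2, 4 and 5 had levels of 8.73, 9.80 and 3.87, so rats high and low in Ifit1 occurred in each group. Fgg, the fibrinogen gamma chain, measured 3.23, 3.35 and 3.24 in sham brain, against 3.53, 3.55 and 7.61 in sham spleen, and the basophil protease Mcpt8 2.78, 3.07 and 2.93 in brain, against 4.05, 7.64 and 6.60 in spleen.

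Reep2, a membrane-shaping protein of the endoplasmic reticulum, was among the genes called at 4-fold in brain, at 7.39, 7.36 and 7.61 in sham brain, against 4.58, 5.13 and 5.44 in sham spleen, and white blood cells measured 9.27, 9.03 and 9.86. Of the 527 genes with several probes, 20 had probes whose brain minus spleen differences lay at least 2.00 apart, and 2 had probes called in opposite directions, Magi1 and Xiap. These genes were named after their values were seen.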
